A study of Mus musculus with 12 samples.

Results

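Sertoli cells are the somatic cells of the seminiferous tubule that surround, feed and support the germ cells, and they form the blood-testis barrier with tight junctions between neighbouring Sertoli cells. Their identity in the testis is set by transcription factors such as SOX9, WT1 and GATA4, and they answer to follicle-stimulating hormone (FSH) and secrete AMH and inhibin. L1 ORF1p is the RNA-binding protein of the LINE-1 retrotransposon, and in testes without MAEL it gathers with RNA in the cytoplasm of spermatocytes, the meiotic germ cells. Transcripts of 9 genes used as Sertoli cell markers (*Clu*, *Sox9*, *Wt1*, *Gata4*, *Amh*, *Fshr*, *Cldn11*, *Inha* and *Gata1*) are described here, chosen by symbol from the 20981 genes of the deposited tables. All 9 were found, and all had a mean of at least 10 normalized counts in each group of libraries.

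All libraries came from testes of 3-month-old *Mael*-/- mice on the C57BL/6 background, so every group carried the same mutation and none was wild type. Clarified extract was the TOTAL group. With 10 mM EDTA added, the extract was run through a 10 to 50% sucrose gradient, and its pooled fractions 5 to 8 were the INPUT group. INPUT material was either precipitated with an antibody against L1 ORF1p (IP) or incubated with beads that carried no antibody (BO, "Beads Only"). There were 3 libraries in each of the 4 groups, 12 in all, and no source used here says whether they came from separate animals. For genes, the tables give levels only as the authors' mean normalized count of each group, with no value per library, so the BO, INPUT and TOTAL values below have no spread between libraries and no test across replicates was made. The IP mean is the exception: it stands in all 3 tables with slightly different scaling, and the whole number of reads in each of the 3 IP libraries was recovered from it.

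As a check of the genotype, *Mael* transcripts were close to absent, with the authors' mean at 0.65 normalized counts for TOTAL and 0.502 for BO, and *Mael* listed at 0 in INPUT and IP. The 3 IP libraries held between 19754089 and 21387454 reads on genes. Behind each other mean stood at least 29291266 gene reads over 3 libraries in BO, 49448302 in INPUT and 50240176 in TOTAL. Among the repeat counts, which are given per library, BO replicate 3 stood apart with 52.1% of its repeat signal on large-subunit rRNA, against 1.93 to 15.9% in the other 11. That library cannot be taken out of the BO gene means, so its part in the BO values was not tested. The gene counts were those of testis: 24 of 24 further Sertoli cell genes were listed above 0 in TOTAL, the 10 spermatocyte markers summed to 38268 normalized counts and the 4 epididymis markers to 0.978. In bulk extracts, fewer cells of a type and less RNA per cell cannot be told apart.

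Per kilobase of the longest annotated transcript, the members differed widely in TOTAL. *Clu* came first with a mean of 36511 normalized counts per kb, followed by *Cldn11* with 5771 and *Inha* with 4366. *Wt1* had 1224 per kb, *Gata1* 644, *Gata4* 557 and *Sox9* 385. The 2 lowest were *Fshr* with 111 and *Amh* with 89.6 per kb. Genes of secreted and junction proteins (*Clu*, *Cldn11* and *Inha*) thus headed the order, and those of the FSH receptor and of AMH, itself secreted, closed it. The order was the same with the median annotated transcript in place of the longest. Whether neighbours in it differ beyond the spread between libraries could not be judged, because TOTAL is held only as a mean.

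**Figure D1:**
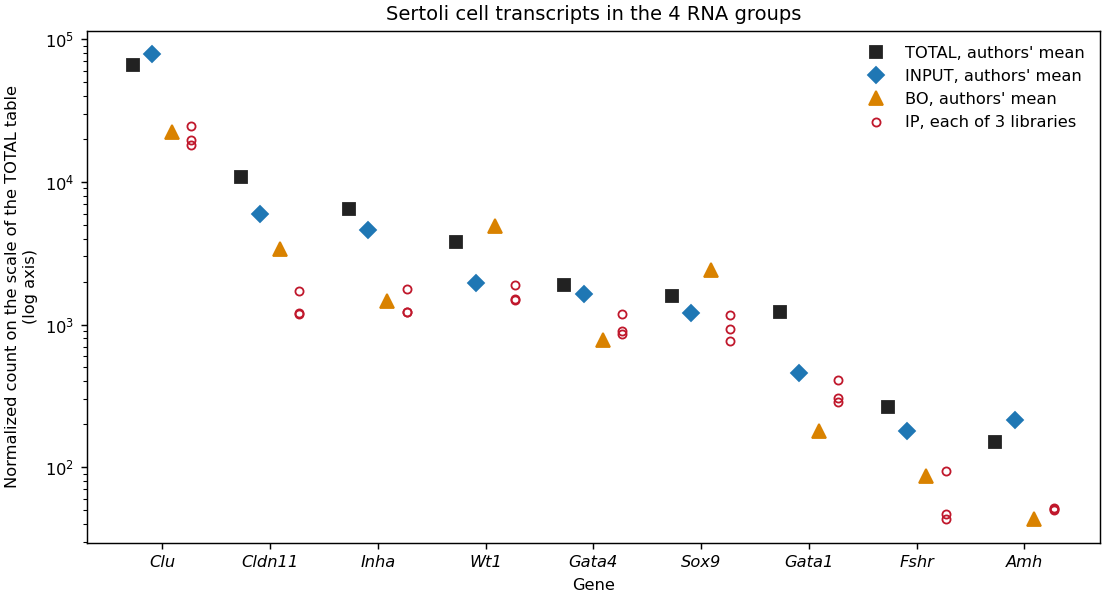
Normalized counts (log axis) of the 9 Sertoli cell genes in TOTAL, INPUT and BO (filled symbols, the authors' means) and in each of the 3 IP libraries (open circles), all set on the scale of the TOTAL table through the shared IP means. For every gene the TOTAL and INPUT means lie above the 3 IP circles, whereas the BO mean lies above them for *Sox9*, *Wt1* and *Cldn11* and below them for *Gata4*, *Amh* and *Gata1*.

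The first 4 members are transcription factors. *Sox9* (ENSMUSG00000000567.5, mm10, chr11:112782224-112787760, plus strand), which directs the choice of the Sertoli cell fate, had a mean of 1591 normalized counts in TOTAL against 767, 935 and 1164 in the 3 IP libraries of the same table. Its INPUT mean was 1209.8, against 781, 955 and 1136 in the IP libraries. In the table of IP and BO, the BO mean was 1855 and the IP libraries gave 587, 731 and 876. The normalized count of *Sox9* was therefore lower in IP than in each control group, by the widest margin against beads alone. On the log2 scale the ratio of the IP mean to the control mean was -1.34 for BO, -0.34 for INPUT and -0.74 for TOTAL.

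*Wt1* (ENSMUSG00000016458.14, chr2:105126529-105173616, plus strand) encodes a zinc finger factor needed for the developing gonad and kept on in Sertoli cells. Its mean was 3781 in TOTAL, with 1481, 1501 and 1897 in the IP libraries. The INPUT mean was 1948, with IP libraries at 1512, 1528 and 1852, and the BO mean was 3761, with IP libraries at 1148, 1157 and 1427. *Wt1* shared the pattern of *Sox9*: the gap to INPUT was narrow, the gap to BO wide, and no IP library reached a control mean. The log2 ratios of means were -1.60 for IP vs. BO, -0.26 for IP vs. INPUT and -1.22 for IP vs. TOTAL.

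*Gata4* (ENSMUSG00000021944.15, chr14:63198922-63271692, minus strand) encodes a GATA factor of gonadal somatic cells, Leydig cells included. The TOTAL mean was 1894, against 855, 896 and 1188 in the IP libraries. The INPUT mean was 1648, with IP libraries at 870, 915 and 1160.1. Against BO the direction was the other way, with a BO mean of 592 and IP libraries at 654, 700.0 and 894. The log2 ratios were 0.34 for IP vs. BO, -0.75 for IP vs. INPUT and -0.95 for IP vs. TOTAL, and the first turned to -0.49 when all genes were centred on the median gene and to -0.47 with upper-quartile scaling.

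*Gata1* (ENSMUSG00000031162.14, chrX:7959260-7978071, minus strand) encodes a GATA factor of Sertoli cells and of erythroid cells. It had a mean of 1225 in TOTAL but 459.8 in INPUT. The IP libraries gave 287, 305 and 406 beside TOTAL and 292, 312 and 396 beside INPUT. Its BO mean of 138 was the lowest of the 4 groups, below IP libraries at 219, 238 and 305. *Gata1* was thus low in BO and far below TOTAL in the other fractions, with log2 ratios of 0.88 for IP vs. BO, -0.46 for IP vs. INPUT and -1.88 for IP vs. TOTAL. The first of these shrank to 0.05 with centring on the median gene. *Alas2*, the haem synthesis gene of red cell precursors and the 1 of 5 erythroid markers found by symbol, had a mean of 439 in TOTAL and 235 in INPUT. The part of blood cells in the *Gata1* values was not tested.

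Among the secreted proteins, *Clu* (ENSMUSG00000022037.15, chr14:65968483-65981547, plus strand) encodes clusterin, an abundant extracellular chaperone. Its means were 66084 in TOTAL and 78351 in INPUT. The IP libraries held 18233, 19668 and 24457 beside TOTAL and 18558, 20090 and 23882 beside INPUT. All 3 were well under both means, and the fold of INPUT over IP was 3.76. The BO mean of 17179 fell inside the range of the IP libraries, which were 13940, 15368 and 18404 in that table. With the deposited scaling IP and BO were therefore not separated for *Clu*, with a log2 ratio of -0.11 that became -0.95 with centring on the median gene and -0.92 with upper-quartile scaling, against -1.91 for IP vs. INPUT and -1.67 for IP vs. TOTAL.

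*Amh* (ENSMUSG00000035262.5, chr10:80805243-80807648, plus strand) encodes anti-Müllerian hormone, made in quantity by immature Sertoli cells and little in the adult testis. Its TOTAL mean was 149.6 and its INPUT mean 213.9, with IP libraries between 50.3 and 51.7 in the first table and between 49.1 and 52.6 in the second. The IP libraries were closely grouped and far from both means, giving log2 ratios of -1.55 for TOTAL and -2.06 for INPUT. The BO mean was 32.9, which stands for 65 to 138 reads in all, and its exact Poisson 95% interval ran from 25.4 to 41.98. The IP libraries of that table, at 37.8, 39.5 and 40.1, lay inside this interval, so the log2 ratio of 0.25 for IP vs. BO was not detectable at this depth. It was -0.59 with centring on the median gene, -0.56 with upper-quartile scaling and -0.04 with scaling to gene totals. Intervals here cover counting error only, since reads without molecular identifiers are not independent molecules.

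*Inha* (ENSMUSG00000032968.4, chr1:75507077-75510366, plus strand) encodes the alpha subunit of inhibin, which lowers FSH secretion by the pituitary. Means were 6439 in TOTAL and 4602 in INPUT. The IP libraries were 1214, 1217 and 1765 beside TOTAL, and 1236, 1243 and 1724 beside INPUT. Like *Clu*, *Inha* was low in IP against both extracts (log2 -2.20 and -1.72) and close to beads alone with the deposited scaling. The BO mean was 1114, within IP libraries at 928, 951 and 1328, for a log2 ratio of -0.06. Leaving out IP library a or b moved that ratio to 0.03 or 0.02, and it was -0.89 with centring on the median gene and -0.87 with upper-quartile scaling.

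The last members sit at the cell surface. *Fshr* (ENSMUSG00000032937.5, chr17:88984952-89200675, minus strand) encodes the FSH receptor. It had 262 normalized counts in TOTAL, with IP libraries at 43.1, 46.8 and 94.1, and 179.5 in INPUT, with IP libraries at 44.0, 47.7 and 91.9. IP library c stood well above the others, with 73 reads (exact Poisson 95% interval 57.2 to 91.8) against 37 reads (26.1 to 51.0) in the lowest, yet stayed below both means. The BO mean of 65.6 lay between the IP libraries, at 33.7, 35.8 and 70.8. Log2 ratios were -0.49 for IP vs. BO, -1.55 for IP vs. INPUT and -2.10 for IP vs. TOTAL. Without IP library c the first became -0.92.

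*Cldn11* (ENSMUSG00000037625.7, chr3:31149920-31164324, plus strand) encodes claudin 11, the principal claudin of the Sertoli cell tight junction. The TOTAL mean was 10791 and the IP libraries were 1182, 1199.8 and 1728. In INPUT the mean was 5979.96, with IP libraries at 1203, 1226 and 1687. The BO mean was 2585, with IP libraries at 904, 938 and 1300.3. With the deposited scaling *Cldn11* was the only member whose IP mean was more than 2-fold below that of all 3 control groups, joined by *Fshr* when centred on the median gene or scaled by the upper quartile. The log2 ratios of *Cldn11* were -1.30 for BO, -2.12 for INPUT and -2.98 for TOTAL. The last is a fold of 7.88 and the widest gap of any member.

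The comparison of IP with INPUT asks which transcripts the antibody retained from the material it was given. All 9 members had a lower mean in IP, and for all 9 the INPUT mean was above each of the 3 IP libraries, which held for 37.5% of the 14809 genes counted at a mean of 10 or more in either group. For no member was it below each of them, as it was for 47.8% of genes. Past 2-fold lower were 5 members (*Cldn11*, *Amh*, *Clu*, *Inha* and *Fshr*), against 15.7% of all genes, and no member was past 2-fold higher, against 21% of all genes. The median log2 ratio was -1.55 over the members and 0.14 over all genes. Among these 9 genes the transcription factors formed the upper end (-0.26 for *Wt1* to -0.75 for *Gata4*), and the secreted, junction and receptor genes the lower end (-1.55 for *Fshr* to -2.12 for *Cldn11*). In the wider Sertoli cell set described below, the highest gene, *Wnt4* (0.10), encodes a secreted protein, as does the lowest, *Shbg* (-2.34). The order by kind of protein is thus given for the 9 members only. *Gata4* passed 2-fold lower when scaled to gene totals (-1.28) or by the upper quartile (-1.06).

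IP and TOTAL differ by the gradient as well as by the antibody. Here too all 9 means were lower in IP and the TOTAL mean exceeded each IP library for all 9, which held for 45.3% of 15150 genes, while it was below each of them for no member and for 42.2% of genes. Past 2-fold lower were 7 members, all but *Sox9* and *Gata4*, against 27.5% of all genes, and none was past 2-fold higher, against 20.7%. The median was -1.67 for the members and -0.05 for all genes. Since the comparisons share the same IP libraries, they are given side by side and not as support for each other. With scaling to gene totals *Sox9* and *Gata4* also passed 2-fold lower, and *Gata4* did without IP library c (-1.11) and, only just, with upper-quartile scaling.

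With the deposited scaling, the comparison with beads alone gave a mixed picture. *Sox9*, *Wt1* and *Cldn11* were past 2-fold lower in IP than in BO, 3 of 9 members against 11.7% of 14135 genes, and their BO means exceeded each IP library, which held for 23.9% of genes. For *Gata4*, *Amh* and *Gata1* the BO mean was below each IP library, which held for 66.3% of genes, and none passed 2-fold, against 44.9% of genes past 2-fold higher. *Clu*, *Fshr* and *Inha* had BO means inside the range of the IP libraries with the deposited scaling, and above it when centring on the median gene. With the deposited scaling, the genes left over from the shares of 23.9% and 66.3% were likewise inside. Centring also put the BO means of *Gata4* and *Amh* above each IP library and that of *Gata1* inside their range, so this grouping of the members holds for the deposited scaling. *Fshr* passed 2-fold lower with centring on the median gene (-1.32) and with upper-quartile scaling (-1.30), which made 4 of 9. The median log2 ratio was -0.11 over the members and 0.83 over all genes. The separation of the members spanned 2.48 on the log2 scale, or 5.57-fold from *Wt1* to *Gata1*, and does not depend on how IP and BO are scaled to each other. The scalings tried move all ratios of IP vs. BO by -0.83, -0.29 or -0.81, so they could not turn a member already below 0.

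**Figure D2:**
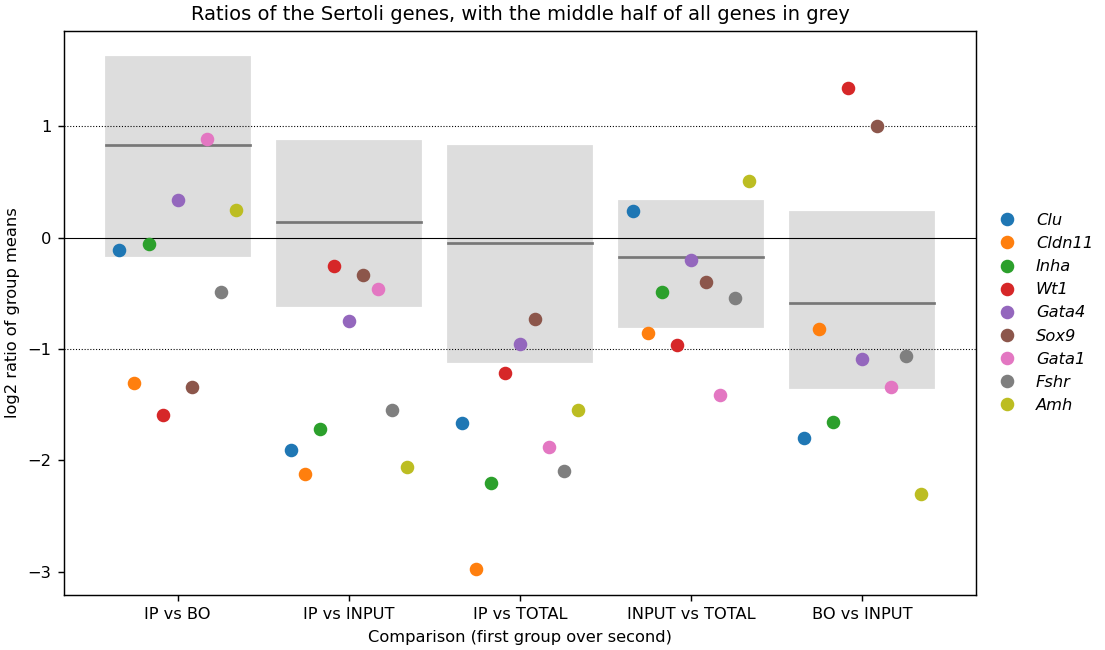
Log2 ratio of group means for each of the 9 genes (points) in 5 comparisons, with the interquartile range (grey box) and median (grey line) of all genes at a mean of 10 or more, and dotted lines at 2-fold. In IP vs. INPUT and IP vs. TOTAL all points are below 0, in IP vs. BO they lie on both sides, and in BO vs. INPUT *Wt1* (1.34) and *Sox9* (1.01) stand apart from the other 7.

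INPUT and TOTAL stand in separately normalized tables, and their ratio was taken through the IP mean that both tables hold. *Amh* (0.51) and *Clu* (0.24) were higher in the gradient fractions than in the extract, and the other 7 were lower. *Gata4* was closest to 0 at -0.20 and became 0.06 with upper-quartile scaling. Only *Gata1* was past 2-fold lower, at -1.42, against 19.3% of all genes, and no member was past 2-fold higher, against 2.57%. *Wt1* at -0.96 and *Cldn11* at -0.85 followed. The members' median of -0.49 compares with -0.18 for all genes. For *Gata1* and *Wt1*, most of the gap between IP and TOTAL was thus already there between INPUT and TOTAL, whereas for *Clu* and *Amh* it lay wholly between IP and INPUT. For *Sox9* the larger part was also there with the deposited scaling (-0.40 of -0.74). With centring on the median gene it was the smaller part (-0.22 of -0.69).

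Relative to INPUT, the shares of the members in the libraries from beads without antibody were uneven. Taken through the IP means of both tables, *Wt1* (log2 1.34) and *Sox9* (1.01) were past 2-fold higher in BO than in INPUT, 2 of 9 members against 9.53% of all genes. *Amh* (-2.31), *Clu* (-1.80), *Inha* (-1.66), *Gata1* (-1.35), *Gata4* (-1.09) and *Fshr* (-1.06) were past 2-fold lower, 6 of 9 against 35.6% of all genes. *Gata1*, *Gata4* and *Fshr* lost that call when centred on the median gene (-0.76, -0.50 and -0.47) or scaled by the upper quartile, which left 3 of 9, while *Cldn11* gained it when scaled to gene totals (-1.06). *Cldn11* was at -0.82. The span from *Wt1* to *Amh* was 3.65 on the log2 scale, a fold of 12.5, and was the widest of the 5 comparisons. The medians were -1.09 for the members and -0.59 for all genes. *Wt1* and *Sox9* stayed above 0 in all scalings tried, with *Sox9* at 0.76 when scaled to gene totals, and the other 7 stayed below 0.

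These differences ran alongside transcript length and composition, as they did over all genes. Among the members the Spearman correlation of the BO/INPUT ratio with transcript length was 0.75 (n = 9), and over 13892 genes it was 0.456. With GC content it was -0.767 among the members and -0.468 over all genes. With the A+U content of the 3′ untranslated region (UTR) it was 0.81 over the 8 members with such a region annotated at 100 nt or more, and 0.482 over 12860 genes. These values describe transcripts measured in the same libraries and carry no test, and the part of length and composition in the BO values was not tested. *Sox9* had the longest transcript of the members, at 4135 nt, and an A+U content of 63.6% in a 3′ UTR of 2250 nt. *Wt1* had 3090 nt, with 59.1% A+U in 1268 nt. *Clu* (1810 nt, 45.2% A+U in 230 nt) and *Inha* (1475 nt, 49.3% in 203 nt) were short and less A+U-rich, and *Amh* (1670 nt, GC content 65.4%) is annotated without a 3′ UTR in the transcript used. *Gata4*, at 3400 nt, was long but had 49.1% A+U. *Fshr*, at 61.0% A+U in 218 nt, was below INPUT on beads (-1.06, and -0.47 with centring on the median gene).

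Of the 8 members with a 3′ UTR, 5 held the pentamer ATTTA, searched on the transcript strand with overlapping matches counted, as did 71.7% of the 13048 genes with at least 100 nt of 3′ UTR. The number per kb was 3.15 in *Wt1*, 2.67 in *Sox9*, 4.59 in *Fshr*, 1.38 in *Gata4* and 0.984 in *Cldn11*. *Clu*, *Inha* and *Gata1* had none. The windows of 30 bases with the most such pentamers, and then the most A and T, are shown for *Wt1*, which was above INPUT on beads, for *Fshr*, which has the pentamer but was below INPUT, and for *Clu* and *Inha*, which lack it. They are taken from GENCODE M21 transcripts with mm10 coordinates, run 5′ to 3′ on the transcript strand, and carry the pentamer in capitals.
*Wt1*, chr2:105173064-105173093, plus strand: atctttttttaatgtctttgATTTAttttt
*Fshr*, chr17:88985057-88985086, minus strand: ttgctacatatttcatctaATTTAatcttt
*Clu*, chr14:65981318-65981347, plus strand: gatagaagcatcaccttcctatatgtagga
*Inha*, chr1:75510324-75510353, plus strand: tcctgtggataacaataaaaaaggaagtgt
The windows hold 26 A or T of 30 bases in *Wt1*, 24 in *Fshr*, 18 in *Clu* and 20 in *Inha*. Of those not shown, the window of *Gata4* holds 2 pentamers and 26 A or T, and that of *Cldn11* 1 and 25. Both genes were below INPUT on beads. The window of *Sox9*, which was above INPUT on beads, holds 1 and 29, and that of *Gata1*, which was below it, 0 and 22. A match to the pentamer is a description of the sequence and not a binding site.

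**Figure D3:**
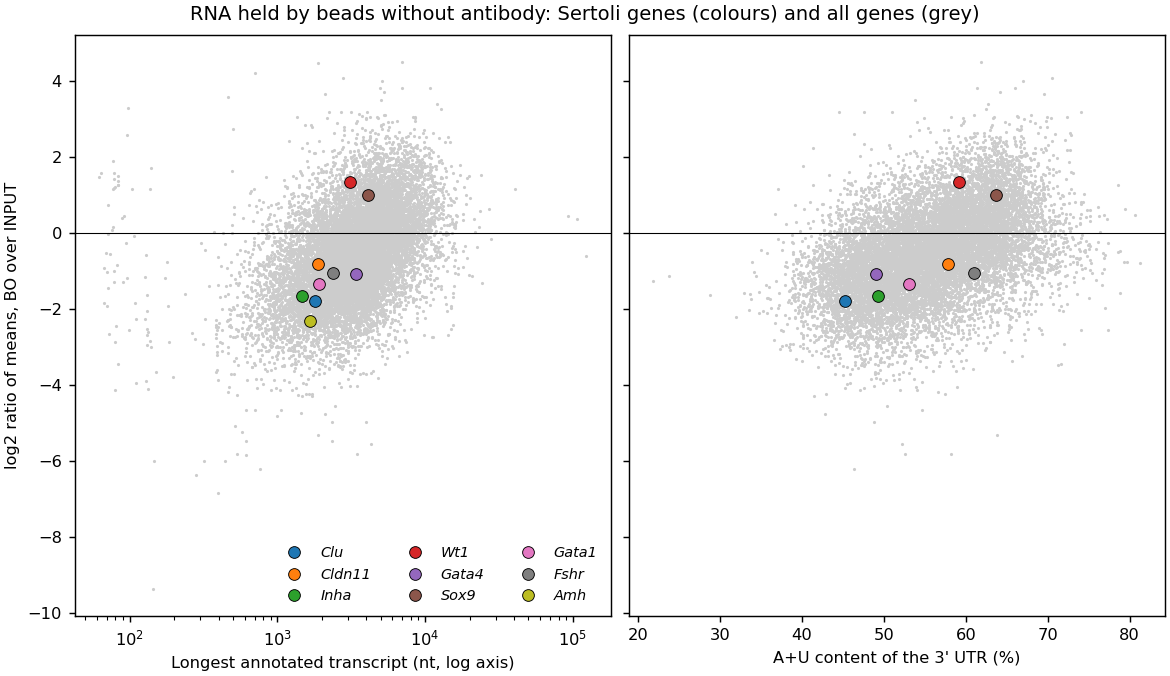
Log2 ratio of the BO mean over the INPUT mean against the length of the longest transcript (left, log axis) and the A+U content of the 3′ UTR (right, %), for the Sertoli cell genes (coloured) and all genes at a mean of 10 or more (grey). *Wt1* and *Sox9* are the only coloured points above 0, and *Gata4*, of similar length but 49.1% A+U, lies at -1.09; *Amh* has no point on the right.

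For the comparison of IP with INPUT, length ran with the members' ratios (Spearman 0.733, n = 9) but hardly over all genes (0.065, 14126 genes). For INPUT vs. TOTAL it was the reverse, with -0.217 among the members and 0.636 over 14240 genes. All 5 members at the low end of IP vs. INPUT had transcripts under the genes' median of 3396.5 nt, as did *Wt1* and *Gata1* at its upper end.

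Ratios between members within a group are free of the scaling between groups, and only their change is read, since they are not per length. The log2 ratio of *Wt1* to *Clu* was -4.13 in TOTAL, -5.33 in INPUT and -2.19 in BO, and -3.73 to -3.60 in the IP libraries. *Sox9* to *Clu* moved in the same order, at -5.38, -6.02 and -3.21, with -4.57 to -4.39 in IP. In both cases the IP libraries fell between INPUT and BO. *Cldn11* to *Clu* differed, with IP libraries at -4.03 to -3.82, below INPUT (-3.71), BO (-2.73) and TOTAL (-2.61). *Cldn11* to *Wt1* was 1.51 in TOTAL and 1.62 in INPUT but -0.54 in BO and -0.34 to -0.13 in IP. *Gata1* to *Gata4* was -0.63 in TOTAL and -1.84 in INPUT, -2.10 in BO and -1.58 to -1.55 in IP. *Inha* to *Clu* stayed within -3.36 in TOTAL and -4.09 in INPUT, with -3.95 in BO and -4.01 to -3.79 in IP, close to constant after the gradient.

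Across the 3 IP libraries the highest normalized value was 1.07 times the lowest for *Amh* and 2.09 times for *Fshr*, with the other 7 members between 1.22 and 1.46. The median over 14151 genes was 1.29. Library c was the highest for 8 of the 9 members and for 59.4% of genes. Reads per IP library ran from 16884 to 18980 for *Clu*, 1271 to 1538 for *Wt1*, 786 to 903 for *Sox9* and 769 to 922 for *Gata4*. They were 1030 to 1341 for *Cldn11*, 1045 to 1370 for *Inha* and 262 to 315 for *Gata1*, but only 39 to 53 for *Amh* and 37 to 73 for *Fshr*. The low counts of *Amh* and *Fshr* make these 2 the least precise of the members.

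By the 3 log2 ratios of IP to BO, INPUT and TOTAL, the genes most like each member were sought among 12747 genes, as the Euclidean distance over 3 comparisons. For *Sox9* it was *Rhoq*, at a distance of 0.016 (log2 ratios -1.33, -0.33 and -0.74). For *Clu* it was *Wfikkn2*, at 0.034, and for *Gata4* *Dact3*, at 0.055. *Cldn11* was closest to *Cxcl16* (0.075), *Wt1* to *Nudt4* (0.087), *Gata1* to *Imp3* (0.12), *Inha* to *Fam210b* (0.13) and *Fshr* to *Itm2b* (0.15). The nearest gene to *Amh* was *Dhh*, at 0.22, with ratios of 0.16, -1.96 and -1.72. *Dhh* encodes Desert hedgehog, itself a Sertoli cell signal to Leydig and peritubular cells, and none of the other nearest genes was in the Sertoli cell lists. The genes next in distance were *Thsd1* for *Sox9* (0.16), *Cfp* for *Clu* (0.11), *BC020402* for *Gata4* (0.084), *Reep5* for *Cldn11* (0.15) and *Rap2b* for *Wt1* (0.197). They were *Sf3b5* for *Gata1* (0.17), *Slc25a34* for *Inha* (0.18) and *Lpcat2* for *Fshr* (0.16).

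The wider set of 24 Sertoli cell genes was found complete. Its counts stand beside the shares of all genes given above, 15.7% lower and 21% higher for IP vs. INPUT, 27.5% lower and 20.7% higher for IP vs. TOTAL, and 11.7% lower and 44.9% higher for IP vs. BO. In IP vs. INPUT 14 of 24 were past 2-fold lower and none past 2-fold higher, with a median of -1.23. The lowest was *Shbg* (-2.34), the androgen-binding protein gene, with 907 normalized counts in INPUT and 179 in IP. *Wnt4* was the highest at 0.10. In IP vs. TOTAL 17 of 24 were past 2-fold lower and none higher (median -1.72). Against BO 4 were past 2-fold higher and 4 lower of the 23 with a mean of at least 10, with a median of 0.16. In BO vs. INPUT 2 of 24 were past 2-fold higher, a share near the 9.53% of all genes. *Kitl*, the ligand of the KIT receptor of spermatogonia, was at 1.34 in that comparison, while 14 of the 24 were past 2-fold lower, against 35.6% of all genes. *Kitl* was named after its values were seen, and its log2 ratio of IP to BO was -3.09.

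Partner genes of the members' pathways did not show one direction in IP vs. INPUT, where 15.7% of all genes were past 2-fold lower, 21% were past 2-fold higher and the median was 0.14. Bulk extracts do not tell which testis cells the transcripts of these partner genes came from. Of 15 activin, inhibin and AMH pathway genes with a mean of at least 10, 4 were past 2-fold lower in IP vs. INPUT and none higher, with a median of 0.14, as over all genes. *Amhr2*, the receptor of AMH, was the lowest (-1.89, from 16617 in INPUT to 4477 in IP), and *Acvr1b*, an activin type I receptor, the highest (0.92). Of 13 genes downstream of the FSH receptor 1 was past 2-fold higher, the cAMP-responsive factor *Crem* (1.58), and none lower, with a median of 0.04 and *Arrb2*, which encodes a beta-arrestin, the lowest at -0.82. Of 7 other GATA factors and cofactors 2 were past 2-fold higher and none lower. *Gata3* was the highest of these (3.88, from 6.49 in INPUT to 95.5 in IP) and entered the count only through its IP mean. *Lmo2*, a cofactor, was the lowest (-0.96).

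Of 8 measured genes around SOX9 and sex determination, 1 was past 2-fold higher, the growth factor *Fgf9* (1.48, from 6.21 to 17.3), which entered the count only through its IP mean, and 3 were lower. *Ptgds*, the prostaglandin D synthase gene acting with SOX9, was the lowest at -3.13, from 11290 in INPUT to 1289 in IP. Of 12 other tight and gap junction genes of the barrier, 5 were past 2-fold lower and none higher, against 15.7% and 21% of all genes. Among the 5, *Cldn3* and *Ocln* passed only just (both -1.01). *Gja1* (connexin 43) was at -2.09, while *Tjp1* (ZO-1) was at 0.99. *Gja1* was also -2.63 in IP vs. BO.

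The Sertoli cell genes were set beside markers of Leydig cells and of spermatocytes. For 9 Leydig cell genes the median log2 ratio was -1.60 in IP vs. INPUT, with 7 past 2-fold lower (15.7% of all genes), and -2.58 in IP vs. TOTAL, with 9 of 9 past 2-fold lower (27.5% of all genes). In IP vs. INPUT they ran from -0.60 for *Srd5a1*, a steroid reductase gene, to -2.99 for *Insl3*, a Leydig cell hormone gene. For the 10 spermatocyte markers it was 2.35 and 2.52, with 10 of 10 past 2-fold higher in both comparisons (21% and 20.7% of all genes), and 3.16 in IP vs. BO. Among them *Sycp3*, of the synaptonemal complex, went from 3293 in INPUT to 27536 in IP. The 9 Sertoli genes and the 10 spermatocyte markers did not overlap in IP vs. INPUT, where the highest Sertoli gene was at -0.26 and the lowest spermatocyte marker at 1.48. In IP vs. BO, *Gata1* (0.88) came near the lowest of them, *Tex15* (1.06). The highest Sertoli gene in IP vs. INPUT, *Wt1*, stood at percentile 36.1 among all genes of that comparison. Both lists were chosen with earlier results of these data known, so the gap between them is a description and not independent support. No test was made of these differences between lists.

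**Figure D4:**
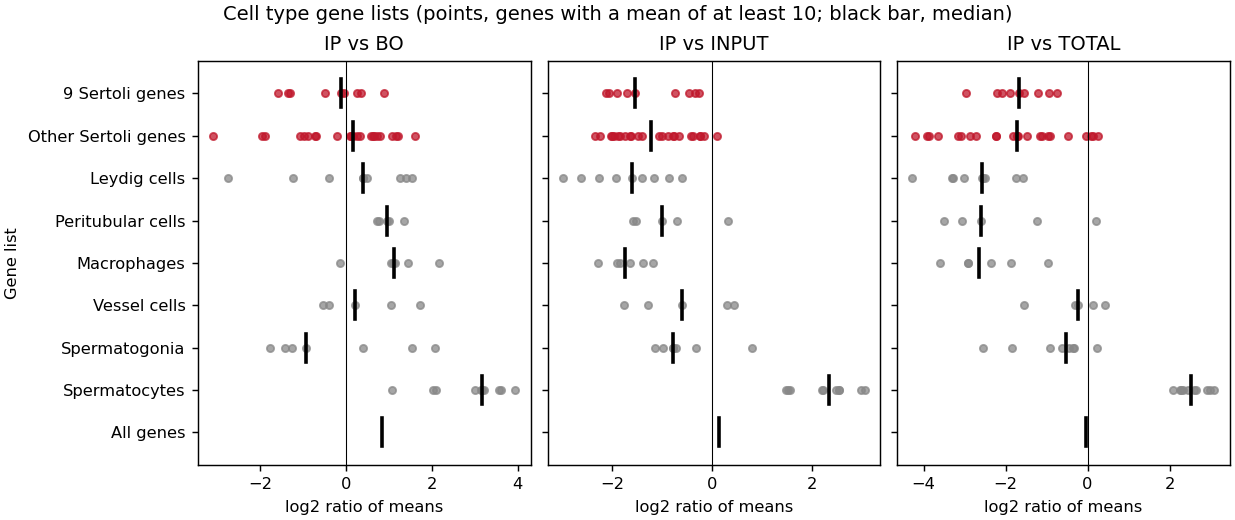
Log2 ratios of group means for the 9 Sertoli cell genes, 24 further Sertoli cell genes (both red) and markers of other testis cells (grey), each point 1 gene with a mean of at least 10 and each black bar the median of its list or of all genes. In IP vs. INPUT the median is -1.55 for the 9 Sertoli cell genes, -1.60 for Leydig cells and 2.35 for spermatocytes.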

How the data were processed

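RNA-seq libraries from *Mael*-/- testes (TOTAL, INPUT, BO and IP, 3 each) were prepared with a stranded kit after rRNA depletion and sequenced as 75 nt single-end reads. Per the labels and methods, the authors used STAR 2.6.0c for mapping to mm10 and DESeq2 1.24.0 to normalize read counts. The deposited signal is, for each of 3 pairwise tables, the mean normalized count of each group over its 3 libraries, rounded to 3 decimals, and for repeats a normalized count signal per library. How reads were counted on genes is not given in the sources used here. The tables also hold the authors' own fold changes, standard errors and p-values, which were not used. Rows that name no feature made up 36.9% of the summed means in BO, 29.6% in INPUT, 37.1% in TOTAL and 21.6% in IP, and were left out.

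The ratio of deposited means was taken without a pseudocount, and "past 2-fold" was counted among genes with a mean of at least 10 in either group. No test across replicates was made, since levels are given only as group means and the authors' own test was not used. BO vs. INPUT and INPUT vs. TOTAL used the IP mean of both tables as a bridge. IP reads per library were solved from the 3 scaled means, and 100% of 20981 genes were met by whole reads within 0.0012. The libraries were called a, b and c, since their replicate numbers are unknown. The recovery was tested on simulated data. Coordinates, lengths and UTRs come from GENCODE M21, which matched 19888 gene symbols (94.8%), all 9 members among them, and in which no other gene overlaps a member. The UTR is that of the longest protein-coding transcript. The 9 members and the other gene lists were chosen with earlier results of these data known. All members are named, and from each other list the genes highest and lowest in IP vs. INPUT, and for each member its nearest genes, except for a few items not reported here. Alternatives were 3 scalings, pseudocounts of 1 and 10, other limits on the mean, a fold of 1.5, the median transcript, another bridge and leaving out each IP library. Python 3.11.15, numpy 2.4.6, pandas 2.3.3 and scipy 1.17.1 were used.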

Additional observations from a re-analysis of the deposited data

How the results depend on the processing

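For the members' log2 ratios, the scaling of the group means mattered most. Centring on the median gene moves all log2 ratios of IP vs. BO by -0.83 and of BO vs. INPUT by 0.59, and scaling to gene totals moves IP vs. INPUT by -0.53 and IP vs. TOTAL by -0.52. The members' median in IP vs. BO became -0.95 with centring, -0.40 with gene totals and -0.92 with upper-quartile scaling. In INPUT vs. TOTAL it became -0.31 with centring and -0.23 with the upper quartile, and in IP vs. TOTAL -2.19 with gene totals. In BO vs. INPUT, whose alternatives were chosen after seeing the data, it became -0.50, -1.33 and -0.59 in the same order, members past 2-fold lower numbered 3 with centring, 3 with the upper quartile, 7 with gene totals and 5 with a pseudocount of 10, and members past 2-fold higher 1 with gene totals and 1 with a pseudocount of 10. These shifts follow from the construction of each scaling. All 9 members stayed lower in IP than in INPUT and in TOTAL under each alternative run. For IP vs. INPUT the 3 scalings only lower the ratios, so they could not have turned that direction. For IP vs. TOTAL they raise the ratios by 0.05 at most, against a highest member at -0.74. Pseudocounts and limits on the mean cannot change a sign. Leaving out 1 IP library could not either, because both control means lay above each IP library for all 9. The unchanged direction is therefore no further support. Leaving out IP libraries a, b and c in turn gave medians of -0.24 to -0.02 for IP vs. BO, -1.89 to -1.36 for IP vs. INPUT and -1.80 to -1.58 for IP vs. TOTAL, with 7 to 8 members past 2-fold lower in the last and 3 and 5 in the others.

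With a fold of 1.5, genes past the threshold were, for IP vs. BO, 8097 higher with 2453 lower. For IP vs. INPUT they were 5118 higher with 3821 lower, for IP vs. TOTAL 4812 higher with 5560 lower, for INPUT vs. TOTAL 1993 higher with 4859 lower, and for BO vs. INPUT 2404 higher with 7311 lower. With the median transcript the levels per kb in TOTAL became 81485 for *Clu*, 2433 for *Wt1*, 1812 for *Gata1* and 1226 for *Gata4*. No paired analysis was possible because the BO, INPUT and TOTAL columns hold group means and carry no replicate. For the same reason no library of those groups could be left out, BO replicate 3 included. Depth limits *Amh* and *Fshr*, with 136 and 158 reads over the 3 IP libraries.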

Other observations

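Macrophage genes were low in IP against INPUT. All 6 were past 2-fold lower in IP vs. INPUT, with a median log2 ratio of -1.75, from -1.19 for *Csf1r*, the receptor of colony-stimulating factor 1, to -2.30 for *C1qb*, a complement subunit, against 15.7% of all genes past 2-fold lower. In IP vs. BO 5 of 6 were past 2-fold higher (median 1.12), beside 44.9% of all genes and a median of 0.83 over them, and in BO vs. INPUT their median was -2.96. *Cd68* (6.67 in BO, 18.2 in IP) and *Cd14* (2.59 and 11.6) entered the IP vs. BO count only through their IP means. That count is therefore not read as a result. Of 5 peritubular cell genes 3 were past 2-fold lower in IP vs. INPUT, *Acta2* only just, beside the same 15.7% of all genes, *Tagln* the lowest at -1.58, while *Myh11*, smooth muscle myosin, was at 0.32. Of 5 vessel genes 2 were past 2-fold lower, *Cdh5* the lowest at -1.77 and *Pecam1* the highest at 0.44.

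For spermatogonial genes, from germ cells before meiosis, the median in IP vs. INPUT was -0.78, below the -0.60 of the vessel genes. It was taken over 7 genes with 1 past 2-fold lower, *Zbtb16* at -1.15, near the share of all genes, and the meiotic entry gene *Stra8* was highest at 0.79. Spermatid markers summed to 156 normalized counts in TOTAL, and *Spata18* was the only 1 of 7 with a mean of at least 10 in IP or INPUT, and only in IP. None of these differences between lists was tested.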
